A study of Homo sapiens with 42 samples.

Results

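The sites described here are adenosines of HEK293T poly(A) RNA that were changed by a nuclear RNA-editing enzyme and had no call with the cytoplasmic or the membrane-bound form of the same enzyme. Of 574863 sites called with the nuclear form, 177626 had a mean rate of changed reads of at least 10% over the 2 replicates, and 52179 of these, 29.4%, were absent from both other HEK293T poly(A) tables. These 52179 NLS-only sites lay under 5731 gene names, out of 1495095 distinct sites over the 7 bulk RNA tables. The other 125447 sites at 10% or more were also called with another form and are called shared sites below. The sites were thus chosen by 2 measured values, the rate and the absence of a call, and the HEK293T poly(A) rates and the absence itself are given as a description, with no test.

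The enzyme was TadA-8e, a laboratory-evolved adenosine deaminase that converts adenosine to inosine, which sequencing reads as G. It was expressed transiently from a plasmid with a nuclear localisation signal (NLS), a nuclear export signal (NES) or a signal for the membrane of the endoplasmic reticulum (ERM). The controls carried a plasmid for GFP alone. HEK293T, a human embryonic kidney line with the SV40 T antigen, was transfected by lipofection, and K562, a human erythroleukaemia line, by electroporation. GFP-positive cells were sorted before RNA extraction. Groups used here were wild-type cells of both lines with 2 libraries each: HEK293T poly(A) RNA with NLS, NES and ERM, HEK293T rRNA-depleted RNA with NLS and NES, K562 poly(A) RNA with NLS and NES, and in addition 10 single HEK293T cells with NES. Whether the replicates were separate cultures is not in the labels, and the p-values below therefore reflect the spread among libraries, which may be technical.

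RNA in the nucleus includes transcripts that are still being spliced, noncoding RNAs that are kept there, and polyadenylated messages with detained introns, which wait in the nucleus until the last introns are removed. Exported messenger RNA passes through the nucleus and is then exposed to enzymes of the cytoplasm.

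Absence in these tables means that a site was not called. The deposited bulk RNA tables list a site only where the authors' adjusted p-value was under 0.05 in both replicates. They give no read number, so the depth behind each rate is unknown. The HEK293T poly(A) tables list 907935 sites for NES, 574863 for NLS and 371699 for ERM. Mean rates over all listed sites were 8.65% and 8.95% in the NLS replicates and 11.1% in each NES replicate. In rRNA-depleted RNA the 2 NES replicates differed, with mean rates of 17.6% and 21.4%, and the NLS replicates had 18.9% and 19.0%. Of 10 erythroid marker genes, none had an NLS site in HEK293T and all 10 had one in K562, while 5 of 7 HEK293T markers had a site in HEK293T and 2 of 7 in K562.

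Sequence around the edited adenosine could be read for the sites that fell in RefSeq microRNA hairpins or in windows around RefSeq transcription starts (GRCh38.p14). The hairpins are shown because they give the bases around NLS-only sites: 7 of the 99 NLS sites in hairpin intervals were NLS-only, no larger a part than the 52179 of 574863 over all NLS sites. Whether these positions are exonic or intronic was not analysed here. The whole hairpin is printed 5′ to 3′, with the edited adenosine in capitals.
MIR1248, chr3:186786672-186786777, plus strand: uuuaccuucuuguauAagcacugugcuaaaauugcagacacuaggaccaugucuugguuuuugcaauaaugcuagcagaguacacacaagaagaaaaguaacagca
MIR3064, chr17:64500774-64500839, minus strand: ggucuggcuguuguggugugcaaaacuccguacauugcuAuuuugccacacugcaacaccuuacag
MIR6501, chr21:33550662-33550728, plus strand: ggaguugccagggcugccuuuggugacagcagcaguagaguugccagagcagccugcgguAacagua
MIR12127, chr3:10280351-10280452, plus strand: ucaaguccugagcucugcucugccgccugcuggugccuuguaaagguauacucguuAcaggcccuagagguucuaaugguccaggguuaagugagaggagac

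The MIR1248 site, in the gene EIF4A2 and the small nucleolar RNA SNORA81, had rates of 13.5% and 14.8% in the HEK293T NLS replicates. In K562 with NLS its rates were 19.7% and 21.7%, in rRNA-depleted RNA with NLS 41.2% and 44.4%, and it was called in no NES table. The MIR3064 site, in the RNA helicase gene DDX5, read 11.3% and 12.8% in HEK293T, 11.8% and 12.1% in K562, and 19.7% and 21.0% in rRNA-depleted RNA, again with no NES call. The MIR6501 site, in SON, a gene of nuclear speckles, read 17.5% and 10.7% in HEK293T and 12.4% and 8.49% in K562. The MIR12127 site, in TATDN2, read 12.7% and 9.23%, and was not called in K562. Of the other 3 hairpin sites, the one in MIR8072 (SBNO1) was also called with NES in K562, at 26.5% and 22.1% beside 25.4% and 14.8% with NLS, and those in MIR3654 and MIR3685 were called in no other bulk table used here.

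The windows around transcription starts, from 250 bases before to 50 bases after, held 318 NLS-only sites of 211 gene names, and the base at the site was A in 318 of 318. The windows of 21 bases below, with the edited adenosine in capitals, show the 8 highest-rate sites in the window of their own gene.
RAD17, chr5:69369810-69369830, plus strand: gggaggccgtAcctccgagag
TAOK1, chr17:29390688-29390708, plus strand: tgtgaggactAgaggcggccg
SMARCD3, chr7:151248789-151248809, minus strand: tttctgtcttAtcagtgcagg
MGAT4B, chr5:179802877-179802897, minus strand: aaggccttgtAggccacatag
RNPS1, chr16:2267399-2267419, minus strand: aggggcggatAcgggaaggtt
RNPS1, chr16:2267536-2267556, minus strand: cggagtcattAattcaaacgt
RPL32, chr3:12840582-12840602, minus strand: caaggccagtActaccggaag
RNF6, chr13:26221958-26221978, minus strand: tcccaccactActtcctggag

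In these windows the base before an NLS-only site was T (U in RNA) in 236 of the 317 sites where it lay in the window, 74.4%, and C in 61, 19.2%. Shared sites at 10% or more had T in 520 of 693, 75.0%, and NLS sites under 10% had it in 685 of 2047, 33.5%. Over all adenosines of the 35116 windows 15.1% followed a T. The share with T rose with the rate in both sets, from 70.3% at rates of 10 to 20% to 87.5% at 40% or more in NLS-only sites, and from 72.1% to 86.3% in shared sites. The values of the 2 sets lay close together, and no test was made of them. Among the printed sites RAD17, which encodes a checkpoint protein, read 93.8% and 75.0% in HEK293T and was called in no other bulk table used here. RPL32, a ribosomal protein gene, read 58.9% and 54.8% in HEK293T, 51.4% and 57.5% in K562 with NLS, and 65.8% and 51.7% in rRNA-depleted RNA with NLS, with no NES call. RNPS1, a splicing regulator, held 8 NLS-only sites at least 10 bases inside its window. Its site at chr16:2267546 read 55.9% and 61.7% in HEK293T and 35.9% and 44.9% in K562 with NLS. TAOK1 was the exception among the 8, since its site was called in rRNA-depleted RNA with NES at 43.9% and 46.9%, beside 55.6% and 42.7% with NLS.

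NLS-only sites had a median rate of 16.0%, with quartiles of 12.5% and 22.4% and a highest value of 99.2%. Rates of 50% or more were reached at 1051 sites, and 82.2% of the sites had 10% or more in each replicate. Mean rates were 19.1% and 19.4% in the 2 replicates, beside 16.7% and 17.2% for shared sites. Just inside the threshold, at 10 to 10.5%, lay 2931 NLS-only sites, of which 46.0% were called in K562 with NLS. Just outside, at 9.5 to 10%, lay 3063 sites without an NES or ERM call, of which 44.1% were called there.

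The 6 sites of highest rate lay in 6 different genes. ARPC5L, a subunit of the actin-nucleating Arp2/3 complex, read 98.3% and 100% in HEK293T and 97.2% and 100% in K562 with NLS. SRSF11, a splicing factor gene, read 100% and 90.0% in HEK293T and 95.8% and 81.3% in K562. ZNF451 read 96.1% and 91.0%, and in K562 88.0% and 85.2%. These sites were high in every NLS poly(A) library and had no NES call in K562. In rRNA-depleted RNA they were called with neither NLS nor NES, so its missing NES call cannot separate the forms. The ZNF451 site was listed in 3 of the single cells with NES. MTA2, a chromatin remodelling subunit, read 96.4% and 86.7%, with 87.2% and 81.6% in K562. PI4KAP2, a pseudogene, read 87.5% and 95.2%, with 71.4% and 60.9% in K562. Since PI4KAP2 has near-identical relatives, the placing of its reads is uncertain. HERC4, a ubiquitin ligase gene, read 92.0% and 90.6% and was not called in K562.

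The choice of sites used neither K562 nor rRNA-depleted RNA, so these tables ask whether the sites lack an NES call there too. In K562, 24212 of the NLS-only sites, 46.4%, were called with NLS, against 73.0% of shared sites. Of these 24212, 17047 were not called with NES in K562, which is 70.4%. For NLS-only sites that also had 10% or more in K562 it was 71.7%, beside 30.1% for all K562 sites called with NLS at that rate. Among all K562 sites called with NLS it was 24.4%. Both values for all sites include the NLS-only sites. For shared sites the share was 7.86%. This share, the part of the sites called with NLS in K562 that had no NES call there, is called the K562 nuclear share below.

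In rRNA-depleted HEK293T RNA 13236 NLS-only sites, 25.4%, were called with NLS, and 9926 of them, 75.0%, had no NES call. For NLS-only sites that also had 10% or more there it was 74.9%, beside 40.0% for all rRNA-depleted NLS sites at that rate. The share was 40.9% among all NLS sites there, and 13.0% for shared sites. Both tables listed 7505 NLS-only sites with NLS, and 4716 of these, 62.8%, were absent from both NES tables. Neither table listed 42.6% of the NLS-only sites. The name "only nuclear" therefore holds for the poly(A) tables that defined it, since 24.3% of the sites were called with NES in K562 or in rRNA-depleted HEK293T RNA.

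**Figure D1:**
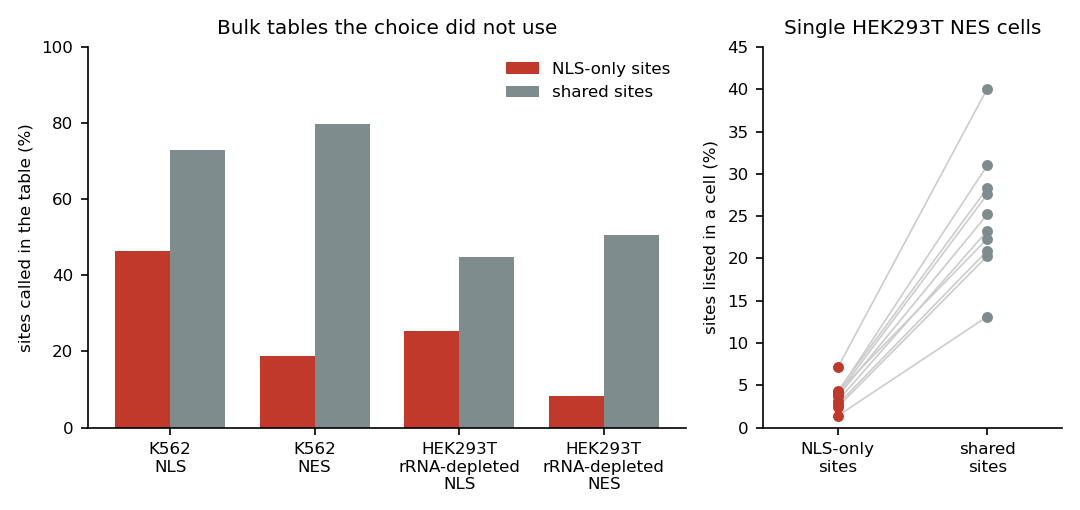
Share of NLS-only sites (red) and shared sites (grey) called in bulk tables that the choice of sites did not use, left, and listed in each of 10 single HEK293T cells with NES, right; y axes in percent, grey lines join the 2 values of a cell. NLS-only sites were called less in every table, and the gap is wider with NES (18.8% against 79.8% in K562) than with NLS (46.4% against 73.0%). The sets were defined by bulk HEK293T calls with NES or ERM, which favours the gap in the single HEK293T cells with NES.

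The K562 nuclear share rose with the HEK293T rate of the sites. It was 65.3% for NLS-only sites at 10 to 15%, 75.5% at 20 to 30% and 85.7% at 50% or more, whereas shared sites stayed between 7.29% and 9.04% over the same bins. In single HEK293T cells with NES, between 1.40% and 7.11% of the NLS-only sites were listed per cell, with a median of 3.83%. For shared sites the range was 13.1% to 40.1%, with a median of 24.2%, and in each cell the shared value was higher by 5.33 to 9.41 times. Shared sites were defined by an NES or ERM call in bulk RNA of the same line, a choice that favours this difference. Where listed, NLS-only sites had the higher median rate in each cell, from 25.1% against 23.2% in cell 9 to 98.4% against 30.6% in cell 3. A site counted as listed in a cell at any rate above 0, without the adjusted p-value that the bulk calls required. Read depth in the cells was not analysed here, so these medians do not show stronger editing of NLS-only sites. No cell listed 75.6% of the NLS-only sites, and all 10 cells listed 19 of them. The K562 genomic DNA table listed 32 of the HEK293T NLS sites and 0 of the NLS-only sites, so it gives no DNA value for any of the latter.

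Where a site was called with both forms, its rates could be tested. The test was limma on log2 rates over all sites called with NLS and NES, and changes are given relative to the median site, because the median K562 site changed by -0.62 (log2) from NES to NLS. In K562, 7165 NLS-only sites had both calls, so the 17047 without an NES call are not among them. Of these 7165, 4336, or 60.5%, were higher with NLS and 37 were lower at an adjusted p under 0.05, with a median change of 1.15. Among all 423471 sites 16.2% were higher and 18.7% lower. Without centring on the median, 2350 NLS-only sites were higher and 257 lower, against 24720 and 171374 of all sites. Leaving out NES replicate 1 or 2 reduced the 4336 to 2055 or 2101.

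In rRNA-depleted RNA, 3310 NLS-only sites had both calls, and 867 of them, 26.2%, were higher with NLS and 2 lower, with a median change of 0.73. All 201162 sites, again without a rate cut, gave 5.01% higher and 4.23% lower. The number of NLS-only sites called higher fell to 375 or 363 without NLS replicate 1 or 2, and to 145 or 113 without NES replicate 1 or 2. On simulated data of this size, with 20% of the sites moved, 56.7% of changes of 2 on the log2 scale and 5.36% of changes of 1 were recovered.

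**Figure D2:**
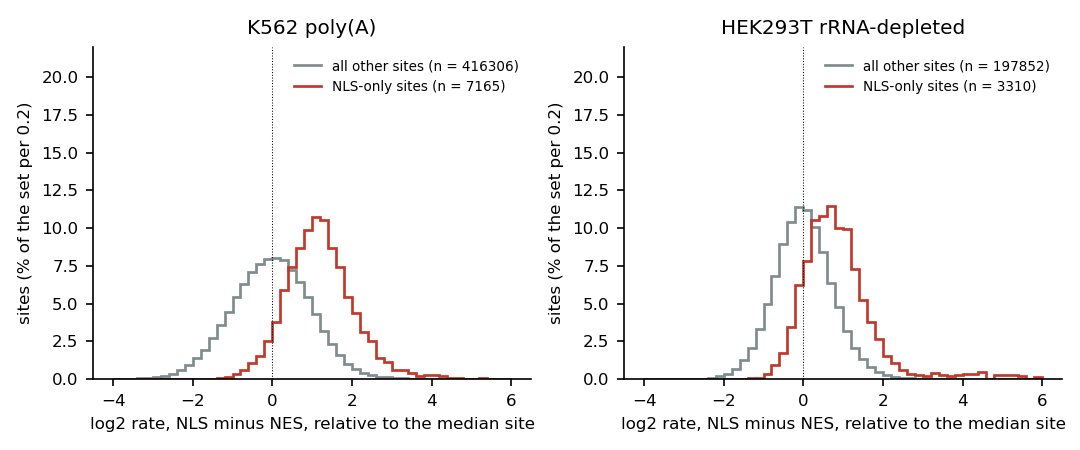
Distribution of the log2 difference in rate between NLS and NES relative to the median site (x axis), as the percentage of each set per 0.2 (y axis), for NLS-only sites (red) and all other sites (grey) called with both forms in K562 poly(A) and HEK293T rRNA-depleted RNA. The red curves lie to the right of the grey ones, with medians of 1.15 and 0.73, and a small group of rRNA-depleted sites lies beyond 3. Grey sites had no rate cut, and red sites were chosen for a high NLS rate in HEK293T.

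NLS-only sites were spread over many genes and dense in some of them. A single site was found in 1725 gene names, and 1245 names with 10 or more sites held 39572, or 75.8%, of all. Names with 100 or more sites numbered 61. Nearly all sites, 98.0%, lay under a gene name that also had sites called with NES, and 215 names with 724 sites had neither NES nor ERM sites. Protein-coding genes held 95.2% of the NLS-only sites. The NLS-only part of all NLS sites at 10% or more was 28.7% in protein-coding genes and 67.5% in long noncoding RNA genes. These classes follow the RefSeq entry of the gene name. The name ATP6V1G2-DDX39B, with 204 NLS-only sites, thus counts as noncoding. TUG1, with 220, and the name FRMD8, with 74, count as protein-coding, although both are treated as noncoding RNA below. Along their genes the NLS-only sites had a median position of 81.4% of the length from the 5′ end, and shared sites 85.3%.

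The sites lay in groups along the RNA. Another NLS-only site was within 50 bases for 56.5% of them, a share near the 59.0% of shared sites among themselves. What differed was the distance to other calls: the nearest site called with NES or ERM was at a median of 60 bases from an NLS-only site and 6 bases from a shared site. It was more than 200 bases away for 27.4% of NLS-only sites and 3.16% of shared sites, a difference that the choice of sites favours. Joining sites at most 50 bases apart gave 341 clusters of 10 or more sites, and 219 of these clusters, 64.2%, held no NES or ERM site between the first and last member. In 302 clusters some member was called with NLS in K562, and in 189 of them no member was called with NES in K562.

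The largest cluster lay in EWSR1, an RNA-binding protein gene, at chr22:29290259-29291235. It held 69 sites in 977 bases with a mean rate of 19.2% and no NES or ERM site, and K562 called 59 of them with NLS and 0 with NES. HNRNPH1, a splicing factor gene, had 48 sites in 853 bases at chr5:179619777-179620629, all 48 called in K562 with NLS and 0 with NES. SRSF3, another splicing factor gene, had 46 sites in 672 bases at chr6:36600294-36600965, with 34 and 0. RPL7, a ribosomal protein gene, had 48 sites in 482 bases, with 28 and 0. A cluster of 46 sites in EIF4A2, an RNA helicase gene of translation initiation, had all 46 called in K562 with NLS and 1 with NES. RBM15, which encodes a protein that guides RNA methylation, was different: among its 51 NLS-only sites in 650 bases lay 10 further sites called with NES or ERM, and 14 of the 51 were called with NES in K562.

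Within one gene, NLS-only and shared sites could be set side by side in K562. HNRNPH1 had 289 NLS-only sites with mean rates of 19.0% and 20.1% in the replicates. K562 called 262 of them with NLS, at 24.0% and 24.2%, and none with NES. HNRNPH1 also had 42 shared sites at 10% or more, with a mean rate of 16.9%, and 1 of these 42 had no NES call in K562. For shared sites of any rate, 60 of the 309 called with NLS in K562, 19.4%, had none. SFPQ, a paraspeckle and splicing protein gene, had 206 NLS-only sites at 16.8% and 17.5%, with 188 called with NLS in K562 and none with NES. Of its 15 shared sites at 10% or more all had an NES call in K562, and of its shared sites of any rate 10 of 279, 3.58%, had none. EWSR1 had 192 NLS-only sites at 19.7% and 20.1%, with 123 called in K562 with NLS and none with NES, beside 1 of 33 shared sites at 10% or more and 24 of 220 of any rate, 10.9%, without an NES call. In these 3 genes the NLS-only sites had no NES call in K562 at all, next to shared sites of the same gene that mostly had one. In some other leading genes many shared sites lacked an NES call too. Of shared sites at 10% or more called with NLS in K562, 17 of 26 in ARRDC3 had no NES call there. RLIM had 30 of 54 and ASH1L 15 of 29, beside 36 of 42 and 10 of 10 of their NLS-only sites.

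**Figure D3:**
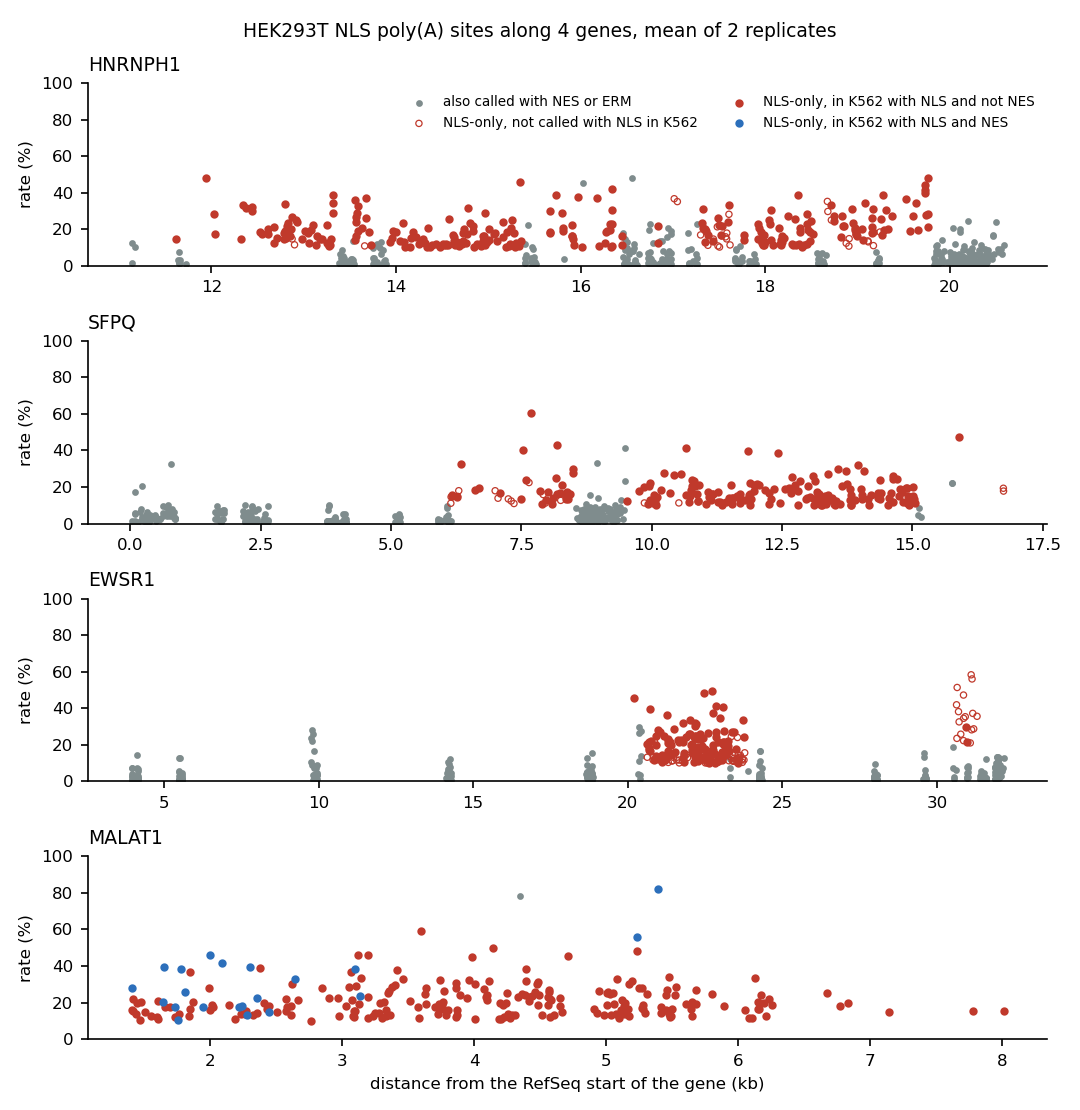
Rate in percent (y axis, mean of 2 HEK293T NLS replicates) of sites along HNRNPH1, SFPQ, EWSR1 and MALAT1 by distance from the RefSeq start of the gene in kb (x axis); grey points are shared sites of any rate, red and blue points NLS-only sites at 10% or more, filled where called with NLS in K562 and blue where also called with NES there. In HNRNPH1, SFPQ and EWSR1 grey and red points occupy mostly separate stretches, and MALAT1 has 1 grey point.

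A split between NLS-only and shared sites also appeared over the list of detained-intron and splicing messages, which held 3004 NLS-only sites in 64 genes. HNRNPH1 is in this list, and SFPQ and EWSR1 are not. NLS-only sites made up 48.1% of the NLS sites at 10% or more in the list, against 29.4% over all genes. The K562 nuclear share was 91.7% for its NLS-only sites and 8.92% for its shared sites at 10% or more, beside 70.4% and 7.86% over all genes. In rRNA-depleted RNA the corresponding shares were 94.8% and 19.9%, beside 75.0% and 13.0%. Of 206 sites called with both forms in K562, 180 were higher with NLS and 0 lower, with a median change of 1.96. Over all NLS-only sites 4336 of 7165 were higher, or 60.5%, with a median change of 1.15. The other lists had no lower sites either. EIF4A2 had 139 NLS-only sites at 18.8% and 19.9%, and 125 of 126 called with NLS in K562 had no NES call. OGT, the O-GlcNAc transferase gene, known for a detained intron, had 165 at 16.2% and 15.2%, and 147 of 163 had no NES call. Sites of the splicing helicase gene DDX39B stood mostly under the read-through name ATP6V1G2-DDX39B, where 200 of 204 lay inside DDX39B and 0 inside ATP6V1G2. The read-through name was not matched to the list, so these sites are not part of the list values above. Of these 204, 151 of the 179 called with NLS in K562 had no NES call. PNISR and TAF1D gave 95 of 108 and 102 of 115.

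Messages listed as cytoplasmic references, the ribosomal protein genes and abundant housekeeping genes, also held NLS-only sites. They had 1840 in 110 genes, 62.6% of the NLS sites at 10% or more in the list, with a median rate of 24.2%. Their K562 nuclear share was 96.1%, and for shared sites at 10% or more of the same list it was 6.54%. EEF2, a translation elongation factor gene, had 61 NLS-only sites at 40.8% and 41.5%, out of 95 NLS sites at 10% or more, and its 34 shared sites in this range had a mean of 15.2%. K562 called 25 of the 61 with NLS, at 39.3% and 39.2%, and 0 with NES, whereas all 33 of the shared sites called there with NLS had an NES call. RPL6 had 58 at 29.3% and 27.3% beside 8 shared sites at 10% or more with a mean of 12.2%, and 26 of the 58 were called with NLS in K562 and 0 with NES. RPL30 and RPL37 had 64 of 65 and 33 of 34 without an NES call.

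Messages translated at the endoplasmic reticulum held few: 29 NLS-only sites, 7.14% of the NLS sites at 10% or more in their list. CALR, a chaperone of that compartment, had 2 such sites, and P4HB, a disulfide isomerase gene, had 10 at 41.3% and 41.9%. Histone messages, many of which end in a stem-loop in place of a poly(A) tail, had 8, or 9.30%. All 6 of those called with NLS in K562 were also called with NES. The list was matched by gene name and not by how the message ends. H1-10 alone held 16 of its 86 NLS sites at 10% or more. No NLS site had a gene name starting with MT-, the prefix of mitochondrially encoded genes, and such RNAs were not searched under other names or by chromosome.

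Noncoding RNAs that stay in the nucleus formed the list with the highest share. NLS-only sites were 669 of their 772 NLS sites at 10% or more, 86.7%, and 429 of the 504 called with NLS in K562, 85.1%, had no NES call. In rRNA-depleted RNA 306 of 415, 73.7%, had none, below the 75.0% of all NLS-only sites. The list also takes in sites under small nucleolar RNA names, such as 15 under EIF4A2,SNORA63. MALAT1, a noncoding RNA of nuclear speckles, had 242 NLS-only sites at 22.6% and 20.5%, no NES site in HEK293T poly(A) RNA and 1 shared site. K562 called all 242 with NLS and 21 of them with NES, and rRNA-depleted RNA gave 241 with NLS, of which 167, 69.3%, had no NES call. At these 21 sites the rates were 44.1% and 46.2% with NLS and 3.57% and 3.68% with NES, and all 21 were higher with NLS, with a median change of 4.06. Its site at chr11:65503134 read 83.2% and 80.6% in HEK293T, and 92.2% and 92.0% with NLS against 6.25% and 5.45% with NES in K562. In rRNA-depleted RNA it read 70.4% and 68.5% with NLS against 5.29% and 7.65% with NES. The change at this site was 4.58 (SE 0.20, limma adjusted p = 0.00456) in K562 and 3.39 (SE 0.38, limma adjusted p = 3.77e-05) in rRNA-depleted RNA, relative to the median site.

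NEAT1, the scaffold of paraspeckles, did not appear under its own name. All 74 NLS-only sites named FRMD8 in the deposited table lay inside the RefSeq interval of NEAT1 and 0 inside FRMD8. They read 14.6% and 15.4% in HEK293T, and 56 of 72 called with NLS in K562 had no NES call, as did 72 of 73 in rRNA-depleted RNA. Shared sites under this name often lacked an NES call as well. Of 17 at 10% or more, 9 had none in K562 and 15 had none in rRNA-depleted RNA. TUG1 was less one-sided, with 220 NLS-only sites at 16.8% and 16.7% and 65 of 114 without an NES call in K562. RN7SK, a small nuclear RNA that inhibits transcription elongation and lacks a poly(A) tail, had 26. In K562 20 of them were called with NLS and 0 with NES. In rRNA-depleted RNA all 26 were called with NLS, at mean rates of 15.9% and 16.1%, and 25 also with NES, at 1.28% and 1.60%. Most of these 26 sites thus had an NES call, at low rates, in rRNA-depleted RNA and none did in K562, where 3 other RN7SK positions were called with NES.

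Noncoding hosts of small nucleolar RNAs had 273 NLS-only sites, 60.7% of their NLS sites at 10% or more. Their K562 nuclear share was 94.5%, and that of their shared sites at 10% or more 6.98%. SNHG1 had 90 at 17.8% and 18.4%, of which 86 of 88 had no NES call in K562, while 1 of its 33 shared sites at 10% or more had none. ZFAS1 had 14 at 33.6% and 27.6%, with 13 called with NLS in K562 and 0 with NES. Antisense and intergenic RNAs had 419, 66.0% of their sites at 10% or more. LINC00641 led them with 209 at 19.1% and 19.7%, but K562 called 2 of these with NLS, so its K562 nuclear share rests on 2 sites. In rRNA-depleted RNA 34 of them were called with NLS and 0 with NES.

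Zinc finger messages had 1838 NLS-only sites in 181 genes, 40.9% of their sites at 10% or more, and a K562 nuclear share of 72.4% that was near the 70.4% of all NLS-only sites. ZNF207 had 95 of 96 sites without an NES call and ZNF621 78 of 101.

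Other leading genes had many NLS-only sites that K562 called with both forms. ASPM, a mitotic spindle gene with the largest number of such sites, had 315 at 16.8% and 15.9%, and 92 of the 152 called with NLS in K562 were also called with NES. UHMK1, a kinase gene, had 245 at 14.7% and 16.7%, of which 138 of 241 had an NES call. At these 138 sites the K562 rates were 18.9% and 19.5% with NLS and 5.99% and 6.23% with NES, and 136 were higher with NLS and 0 lower. In ASPM the 92 sites read 12.8% in both NLS replicates and 11.0% and 10.8% with NES, and 41 were higher with NLS relative to the median. ARRDC3, an arrestin-family gene, had 172, all called with NLS in K562 and 8 also with NES. Of the 573 gene names with at least 10 NLS-only sites called with NLS in K562, 108 had none of them called with NES and 129 had more than 50% of them called with NES. Over these 573 the median K562 nuclear share was 75.0%.

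For the sites plotted by library in 10 genes, the NLS rates of both cell lines stand side by side. SFPQ at chr1:35185458 read 60.5% and 60.3% in HEK293T, 64.8% and 68.6% in K562, and 66.2% and 64.3% in rRNA-depleted RNA, all with NLS. DDX39B at chr6:31532096 read 73.3% and 73.5%, then 77.7% and 50.6% in K562, so that its K562 replicates lay on both sides of the HEK293T values. PURB, which encodes a purine-rich element binding protein, read 44.9% and 46.7% in HEK293T, 52.5% and 58.8% in K562 and 75.7% and 81.8% in rRNA-depleted RNA. In TUG1 the site read 39.6% and 39.3% in HEK293T, and in K562 46.8% and 26.7% with NLS against 14.1% and 16.9% with NES. The UHMK1 site read 40.9% and 26.6% in HEK293T, and in K562 23.4% and 34.2% with NLS against 16.0% and 18.8% with NES. Its change passed the test in K562, at 1.33 (SE 0.26, limma adjusted p = 0.0124), and did not in rRNA-depleted RNA, at 0.66 (SE 0.36, limma adjusted p = 0.255).

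Gene values, the mean rate over all sites of a gene called with both forms, gave a different picture of the same genes. In K562, 3779 gene names with NLS-only sites could be tested, and 2042 of them, 54.0%, were higher with NLS relative to the median gene and 798 lower. Over all 6523 names 37.3% were higher and 37.3% lower. The median gene itself changed by -0.71 (log2) from NES to NLS, and without centring 347 of the 3779 were higher and 2680 lower. MALAT1 was highest of the genes named here at 4.15 (SE 0.07, limma adjusted p = 1.96e-09). ARRDC3 stood at 2.73, the name FRMD8 at 2.41 (SE 0.07, limma adjusted p = 1.76e-08), OGT at 2.21, DDX39B at 2.08 and EIF4A2 at 1.72. The FRMD8 value is a mean over 39 sites, of which 36 lay inside NEAT1 and 3 inside FRMD8, and 16 of the 39 were NLS-only sites. HNRNPH1 had 1.21 (SE 0.02, limma adjusted p = 4.13e-09) and EWSR1 0.37, and EWSR1 was lower, at -0.34, without centring. SFPQ was lower with NLS at -0.10 (SE 0.02, limma adjusted p = 0.00527), a call that was lost without the variance trend (limma adjusted p = 0.117), with a pseudocount of 0.01 (limma adjusted p = 0.134) and with the median of site rates (limma adjusted p = 0.922). RPL6 was lower at -1.08 (SE 0.03, limma adjusted p = 9.99e-09). The gene values of HNRNPH1, EWSR1, SFPQ and RPL6 hold no NLS-only sites, since none of theirs was called with NES in K562. In EIF4A2 1 NLS-only site was called with both forms there.

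In rRNA-depleted RNA 168 of 3256 such gene names, 5.16%, were higher with NLS and 6 lower, against 3.68% and 0.989% over all 5357 names. MALAT1 stood at 4.53 (SE 0.23, limma adjusted p = 2.09e-79) and RN7SK at 3.14 (SE 0.23, limma adjusted p = 2.17e-38). Standard errors were nearly equal over these genes, because limma pooled the spread, and such small p-values rest on that pooling. The count of 168 was 9 or 8 without NLS replicate 1 or 2 and 796 or 637 without NES replicate 1 or 2, so it rests on which libraries enter.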

How the data were processed

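Per the submitters' processing notes, the tools were cutadapt, STAR, Bowtie2 and SAMtools, without versions, and the build was hg38. How sites were called was not given in the sources used here. Each deposited fraction is each replicate's share of reads with the change at a site, and the deposited p-value is the authors' adjusted one. The genomic DNA table holds the authors' read count per adenosine, and 0 value columns of the files used were left without a sample.

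Members were taken from the HEK293T tables by the rule in the text. The members and the gene lists were chosen with earlier results of these data known. Rates of sites called with NLS and NES, or their gene means over at least 5 shared sites, were compared as log2(fraction + 0.001) in limma 3.58.1 (R 4.3.3), with a variance trend, two-sided, Benjamini-Hochberg adjusted over all features, threshold 0.05, relative to the median feature. Genes named are the 20 with most members and up to 4 more per list. Sites named are the highest-rate member also called in K562 in each of 10 leading genes, and the 6 of highest rate. TXNIP, CRKL, MKI67, RAD17 and other genes shown for their sequence or clusters were chosen after their values were seen. One gene that the rule selects is not reported here. Names matched RefSeq for 98.8% of members. Same-numbered replicates did not deviate together (correlation 0.0033 in K562 and 0.018 in rRNA-depleted RNA), so replicate numbers were not used as pairs.

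On simulated data with 200 features moved, changes of 1 on the log2 scale were recovered for 86.0% of K562 genes and 12.0% of rRNA-depleted genes, and for 0% of sites. With 20% of sites moved, 36.9% of such changes were recovered in K562, with 3.67% false among the calls. Tables and figures were made in Python 3.11.15 with pandas 2.3.3, numpy 2.4.6 and matplotlib 3.10.9.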

Additional observations from a re-analysis of the deposited data

Results flagged for a closer look

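One of the 10 single cells with NES stood apart from the others in the share of NLS-only sites it listed, 7.11%, beside 1.40% to 4.32% in the other 9. This cell also listed the most sites of all, 551317. Chance flags about 1 group in 20 for a single measure, and 5 measures were looked at in these cells, so the rate over all of them is higher.

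The gene value of SFPQ with NLS against NES, relative to the median gene, was -0.10 in K562 (limma adjusted p = 0.00527, lost under 3 alternatives) and 0.12 in rRNA-depleted HEK293T RNA (SE 0.23, limma adjusted p = 0.862), with both NLS libraries on one side of both NES libraries in each. CALR, a chaperone gene of the endoplasmic reticulum, had -0.35 in K562 (limma adjusted p = 1.86e-05) and 0.27 in rRNA-depleted RNA (SE 0.23, limma adjusted p = 0.626) in the same way. Both rRNA-depleted values did not pass the test. Neither difference between the 2 comparisons was tested, and cell line and RNA selection cannot be told apart.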

How the results depend on the processing

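With sites taken at 5% or more there were 88683 NLS-only sites, and their K562 nuclear share was 67.7%, the rRNA-depleted share 75.3%, the share called with NLS in K562 44.9%, the share within 50 bases of another 61.6% and the number of clusters of 10 or more 717. At 20% or more the values were 16758 sites in 3256 gene names, 77.7%, 78.6%, 47.1%, 44.3% and 28. With 10% required in each replicate the nuclear shares were 71.9% and 75.6%, with 54.1% within 50 bases and 226 clusters. For the 24193 sites with an NES or ERM site within 50 bases the values were 60.4%, 68.1%, 46.0%, 48.8% and 44. A gap of 25 or 100 bases gave 42.5% or 68.3% of sites near another and 82 or 591 clusters. Taking the threshold on 1 replicate alone gave 75.1% to 75.3% for the rRNA-depleted nuclear share, 55.4% to 55.6% within 50 bases and 46.1% to 46.3% called in K562.

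Without centring, 2350 NLS-only sites and 347 gene names with such sites were higher with NLS in K562, EWSR1 turned to -0.34 (limma adjusted p = 3.75e-06), and ASPM lost its call at -0.012 (limma adjusted p = 0.718). Of 121 alternative values of 11 named genes in K562, 116 kept direction and call, 3, all of SFPQ, lost the call and these 2 changed sign. Leaving out 1 library gave 2055 to 4135 NLS-only sites higher in K562, 113 to 375 in rRNA-depleted RNA and 8 to 796 gene names in rRNA-depleted RNA, and the cause was not tested. With a replicate block, which the labels do not call a pairing, 4570 and 1155 NLS-only sites and 2063 and 168 gene names were higher in K562 and rRNA-depleted RNA. The unknown depth limits every absence reported here, and the 2 libraries per group limit the tests.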

Other observations

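Some messages outside the lists had NLS-only sites with low NES rates in K562, and they are named here after their values were seen. TXNIP, an arrestin-family regulator of glucose uptake, had 36 such sites called with both forms, with K562 rates of 15.6% and 15.9% with NLS and 2.13% in both NES replicates. All 36 were higher with NLS, with a median change of 3.53 on the log2 scale relative to the median site. CRKL, an adaptor protein gene, had 29 with 14.6% and 14.7% against 3.35% and 3.39%, and 27 were higher. MKI67, a proliferation marker, went the other way in rate: its 21 sites read 10.9% and 11.3% with NLS and 15.5% and 15.1% with NES, and relative to the median 0 were higher and 1 was lower.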
